A study of Mus musculus with 10 samples.

Results

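The SC subset of a mouse acute promyelocytic leukaemia was compared with both other subsets sorted from untreated leukaemic marrow, to find genes that set it apart in 1 direction from each of them. A gene counted as set apart when the SC arrays were higher, or lower, at an adjusted p under 0.05 against the PD subset, against the TD subset and against the mean of the PD and TD groups with equal weights. Of 14581 genes tested, 263 were set apart (1.8%), 61 of them higher in the SC subset (0.418%) and 202 lower (1.39%).

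All samples came from a PML-RARα transgenic model on FVB N/J mice, aged 8 to 10 weeks per the labels. A retrovirus marked the leukaemic bone marrow cells with GFP, syngeneic recipients carried and expanded them, and the GFP-positive cells were then sorted by flow cytometry. The SC, PD and TD subsets of untreated marrow are called UNSC, UNPD and UNTD here. RAPD and RATD are the PD and TD subsets of marrow treated with all-trans retinoic acid (ATRA) at 10 mg/kg, for 5 days per the protocol, although the sample sources are labelled 3 to 5 days. The series holds 10 arrays, with 2 biological replicates per group as labelled. The labels spell out neither the subset names nor the surface markers of the sort, and do not say which promoter drives the transgene or how many recipients gave a sample. No ATRA-treated SC sample was among those analysed here.

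PML-RARα joins a nuclear body protein to a retinoic acid receptor and represses genes that promyelocytes need in order to mature. As neutrophils mature they make their granules in order, with myeloperoxidase and serine proteases in primary granules first and lactoferrin, lipocalin and gelatinase in secondary and tertiary granules later. C/EBP factors switch on many of the later granule genes, and dividing progenitors are known for Kit, Myb and Cdk6.

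The values are log2 signals, on which 1 unit is a 2-fold difference. The files carry no detection call, so a gene is called dim on an array when it does not exceed the 40th percentile of all probe sets there, between 4.81 and 5.12. Against a group that was dim on both arrays, only a lower bound on the fold is given ("at least"), with that percentile, averaged over the group, standing for the dim level. Differences are given with the SE of the limma fit, and each adjusted p is limma's with Benjamini-Hochberg adjustment over the 14581 genes. UNSC minus UNPD and UNSC minus UNTD share both UNSC arrays, so a chance deviation of those arrays moves both. Gene levels belong to sorted populations, in which fewer cells of a type and less RNA per cell cannot be told apart.

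The 75th percentile of log2 signal was 8.28 and 8.35 on the UNPD arrays and 8.70 to 8.78 on the 4 other untreated arrays. Over 6329 bright genes the SD of the log2 difference between replicates was 0.158 for UNSC, 0.305 for UNPD, 0.256 for UNTD, 0.503 for RAPD and 0.467 for RATD. UNSC differed from UNPD for 3766 genes (25.8%), 2215 higher (15.2%) and 1551 lower (10.6%), and from UNTD for 1189 genes (8.15%), 466 higher (3.2%) and 723 lower (4.96%). It differed from the mean of both for 1479 genes (10.1%). Against the mean, 858 genes were higher (5.88%) and 621 lower (4.26%), a share of 58% higher. That share was 10.3% and 10% without UNSC replicate 1 or 2, 31.6% without UNPD replicate 1, 36.9% and 34.4% without UNTD replicate 1 or 2, and 55.6% to 64.8% without any other array. When arrays were scaled to a common 75th percentile, 38.6% of the calls against the mean were higher, and the median difference over all genes moved from -0.04 to -0.216. Under that scaling and under quantile normalization all 61 higher and all 202 lower genes kept their sign, and 35 and 152 of them stayed set apart under both.

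The labelled cell type was first checked against granulocyte genes. Mpo (myeloperoxidase) stood at 15.12 and 15.11 on the UNSC arrays, 15.32 and 15.27 in UNPD, and 14.28 and 13.66 in UNTD. Ctsg (cathepsin G) stood at 15.36 and 15.45 in UNSC, and Prtn3 (proteinase 3) at 14.29 and 14.38. Elane (neutrophil elastase) stood at 14.05 and 14.07 in UNSC, between UNPD at 14.76 and 14.59 and UNTD at 12.98 and 12.46. All 17 measured primary granule genes were above the dim level on at least 1 UNSC array, and 0 of the 17 were set apart. Cebpa at 11.26 and 11.09, Spi1 (PU.1) at 11.67 and 11.60 and Ptprc (CD45) at 13.02 and 13.19 were also well above the dim level in UNSC. Markers of promyelocytes were thus present in UNSC as in the other subsets.

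Stem cell genes did not form a set that was higher in UNSC. Kit, the stem cell factor receptor, read 11.35 and 11.41 in UNSC, 10.99 and 11.22 in UNPD and 9.68 and 9.33 in UNTD. UNSC was 1.87 ± 0.20 above UNTD (adjusted p = 0.000167), and its difference from UNPD of 0.28 ± 0.20 did not pass the test (adjusted p = 0.336). Cd34 was dim on all 6 untreated arrays. Hoxa9, a homeobox gene of stem cells and leukaemia, was dim on both UNSC arrays, and Meis1, its cofactor, was above the dim level on 1 of them, at 5.02. Flt3, a receptor of early progenitors and dendritic cells, was set apart lower: it was dim on both UNSC arrays at 2.36 and 1.96, read 5.52 and 3.91 in UNPD with 1 array above the dim level, and 5.90 and 6.03 in UNTD, at least 2.20-fold higher than in UNSC. Of 25 stem and progenitor transcription factors 1 was set apart higher and 0 lower, and of 19 progenitor surface genes 1 was higher and 1 lower. Over all genes 0.418% were set apart higher and 1.39% lower.

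Myb, a transcription factor that keeps progenitors dividing, was the transcription factor of that list. It read 13.60 and 13.68 in UNSC, 12.79 and 12.85 in UNPD, and 12.67 and 12.36 in UNTD, so the UNSC arrays lay above all 4 others. The difference was 0.82 ± 0.18 against UNPD (adjusted p = 0.00741) and 1.12 ± 0.18 against UNTD (adjusted p = 0.00298). Prom1, encoding the pentaspan membrane protein prominin (CD133), was the surface gene, at 12.73 and 12.71 in UNSC against 11.58 and 11.85 in UNPD and 11.82 and 11.42 in UNTD. Its differences were 0.9995 ± 0.29 (adjusted p = 0.0268) and 1.10 ± 0.29 (adjusted p = 0.0405). Scaling to the 75th percentile ended both calls, with a largest adjusted p of 0.130 for Myb and 0.0887 for Prom1. Myb stayed set apart in 3 of the 6 fits that each leave out 1 untreated array and Prom1 in 0 of them, with largest adjusted p of 0.112 without UNSC replicate 2 and 0.256 without UNTD replicate 2.

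Cdk6, a cyclin-dependent kinase of the G1 phase, was also set apart higher. Its levels were 13.40 and 13.36 in UNSC, 11.28 and 11.61 in UNPD, and 11.93 and 11.73 in UNTD. UNSC was 3.82-fold above UNPD (1.93 ± 0.33, adjusted p = 0.00219) and 2.92-fold above UNTD (1.54 ± 0.33, adjusted p = 0.0139). The call was kept in 2 of the 6 fits leaving out 1 untreated array, and its largest adjusted p was 0.110, without UNTD replicate 2. Of the 24 cell cycle inhibitors and G1 genes, Cdk6 alone was set apart higher and 4 were set apart lower, beside 0.418% and 1.39% of all genes.

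The 4 lower were Cdkn2a and Cdkn2b, inhibitors of the kinase that Cdk6 encodes, Ccnd3, a cyclin that activates it, and E2f2. Cdkn2a read 6.32 and 6.40 in UNSC, 8.53 and 8.25 in UNPD, and 7.63 and 7.80 in UNTD, lower, with log2 differences of -2.03 ± 0.31 (adjusted p = 0.00167) and -1.36 ± 0.31 (adjusted p = 0.0196). Cdkn2b, its neighbour gene, was dim on both UNSC arrays at 3.41 and 2.85 and read 6.11 and 5.99 in UNPD and 5.59 and 6.05 in UNTD. It was at least 2.33-fold lower than in UNPD (adjusted p = 0.00197) and at least 1.99-fold lower than in UNTD (adjusted p = 0.00455). E2f2, an E2F transcription factor, was lower at 6.46 and 6.48, against 7.70 and 7.38 in UNPD and 8.58 and 9.33 in UNTD. Ccnd3, named after its values were seen, read 11.53 and 11.49 in UNSC, 12.37 on both UNPD arrays, and 12.26 and 12.47 in UNTD, lower, with log2 differences of -0.86 ± 0.17 against each (adjusted p = 0.00385 and 0.00873). For Cdkn2a quantile normalization gave a largest adjusted p of 0.0605, and the largest adjusted p without 1 array was 0.134 for Cdkn2a (UNTD replicate 2), 0.0585 for Cdkn2b (UNTD replicate 2) and 0.154 for E2f2 (UNPD replicate 1).

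Of 36 DNA replication genes, 2 were set apart higher and 0 lower, beside 0.418% and 1.39% of all genes. The list did not point 1 way against UNPD, where 4 were higher in UNSC and 10 lower, beside 15.2% and 10.6% of all genes. Its median difference from UNPD was -0.253. Against UNTD 11 were higher and 0 lower, beside 3.2% and 4.96%, with a list median of 0.574. Mcm4, a subunit of the replicative helicase, read 12.23 and 12.70 in UNSC, 11.25 and 11.42 in UNPD, and 11.41 and 11.86 in UNTD. Its difference was 1.13 ± 0.23 against UNPD (adjusted p = 0.00446) and 0.84 ± 0.23 against UNTD (adjusted p = 0.0453). Orc1, the largest subunit of the origin recognition complex, read 9.11 on both UNSC arrays, 8.06 and 8.21 in UNPD, and 8.22 and 8.18 in UNTD. Neither call was kept in most fits without 1 untreated array (0 of 6 for Mcm4, whose largest adjusted p was 0.37 without UNSC replicate 2, and 1 of 6 for Orc1, 0.15 without UNSC replicate 2). Both scalings also ended the call of Orc1 (largest adjusted p = 0.0754 and 0.0653). Of 34 mitosis genes 0 were set apart, although 15 were higher against the mean of the other subsets, beside 5.88% of all genes. The list's median difference from that mean was 0.723, beside -0.04 over all genes. Against UNPD alone 17 were higher in UNSC and 8 lower, beside 15.2% and 10.6% of all genes, with a list median of 0.836. Against UNTD 8 were higher and 0 lower, beside 3.2% and 4.96%, with a list median of 0.659. Of the 34 genes, 6 stood between the subsets with UNPD highest, beside 0.528% of all genes: Cdk1, Aurkb, Plk1, Kif2c, Ube2c and Birc5.

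Several large increases over both subsets, among them those of Sectm1a, Egfl6 and Dock9, were in genes that belong to none of the lists. Sectm1a, encoding a small secreted and transmembrane protein of immune cells, read 10.06 and 10.07 in UNSC, 5.69 and 4.58 in UNPD with 1 array above the dim level, and 4.70 and 4.34 in UNTD. It was higher by 4.93 ± 0.60 against UNPD (adjusted p = 0.00123) and at least 32.5-fold higher than in UNTD (adjusted p = 0.000202). Egfl6, a secreted protein with EGF repeats, was dim on all 4 arrays of the other untreated subsets and read 8.64 and 8.32 in UNSC, at least 12.2-fold above UNPD (adjusted p = 0.0158) and at least 10.8-fold above UNTD (adjusted p = 0.0122, and at most 0.17 without UNSC replicate 2). Dock9, an exchange factor for the GTPase Cdc42, read 9.83 and 9.76 in UNSC, 6.80 and 6.89 in UNPD, and 6.42 and 5.55 in UNTD. That is 7.73-fold and 14.02-fold (adjusted p = 0.00197 and 0.000514), although the other probe sets of Dock9 did not all point the same way.

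Dnajc6, the neuronal auxilin that uncoats clathrin vesicles, read 10.62 and 10.59 in UNSC, 8.21 and 8.07 in UNPD, and 8.06 and 7.88 in UNTD, higher by 2.47 ± 0.20 and 2.64 ± 0.20 (adjusted p = 0.000944 and 1.74e-05). Clu (clusterin, a secreted chaperone) read 10.07 and 10.08, against 7.51 and 8.18 in UNPD and 7.01 and 6.67 in UNTD. B3gnt5, which starts the lacto-series sugar chains of glycolipids, read 11.75 and 11.78, against 9.38 and 9.52 in UNPD and 9.21 and 8.95 in UNTD. Dixdc1, a DIX-domain protein of the Wnt pathway, read 10.07 and 9.92, and no value above 8.01 was seen on the 4 other untreated arrays. Sectm1a, Dock9, Dnajc6, Clu, B3gnt5 and Dixdc1 were the 6 of the 61 genes that stayed set apart when each of the 6 untreated arrays was left out in turn.

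**Figure D1:**
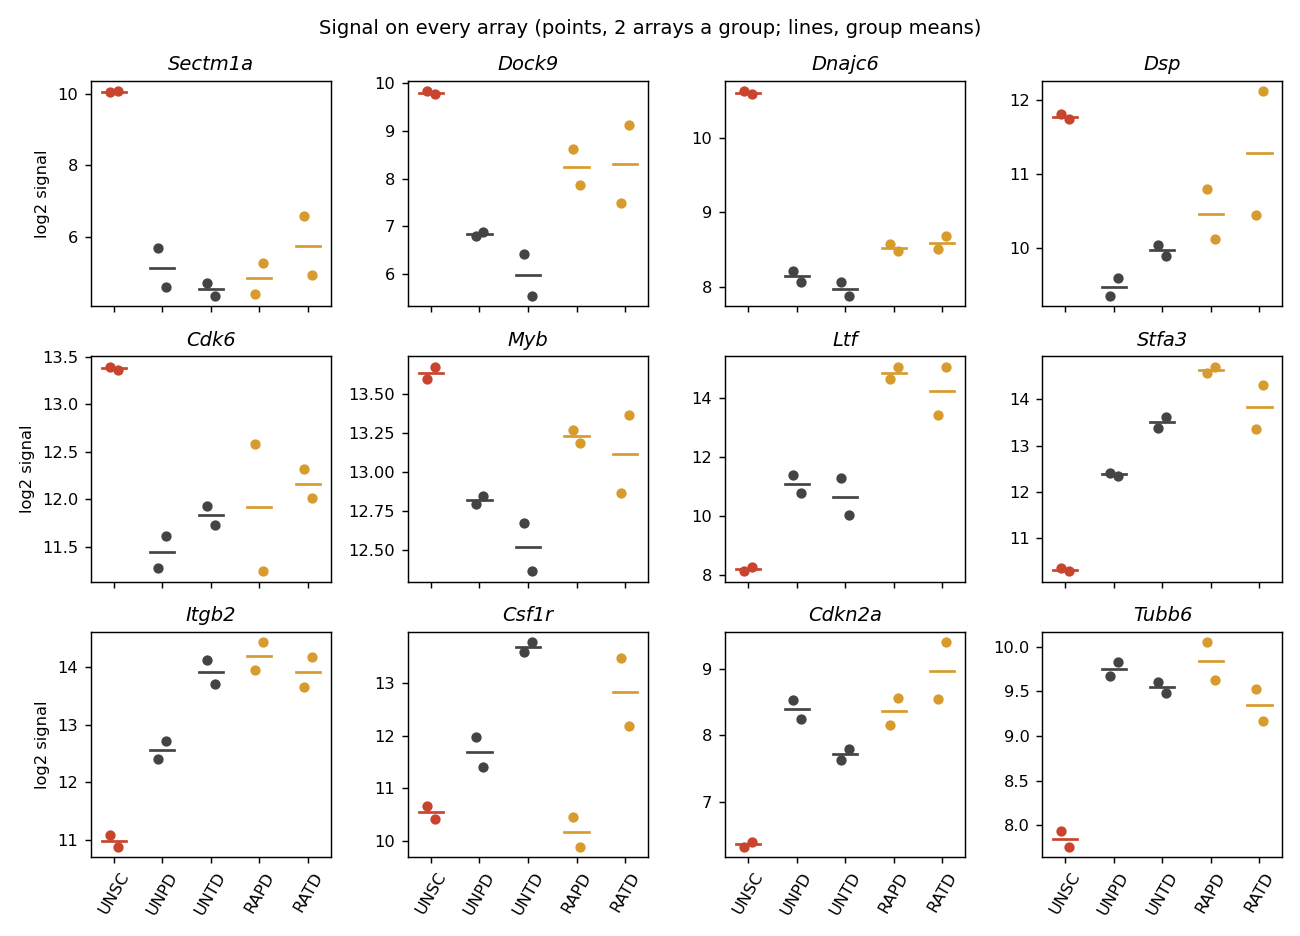
Log2 signal of 12 set-apart genes on all 10 arrays, by group on the x axis, with points for the 2 arrays of a group and lines for group means, and axes that do not start at 0. Both UNSC arrays (red) lie above the UNPD and UNTD arrays (grey) in the first 6 panels and below them in the other 6, and the ATRA-treated groups (yellow) are shown for comparison, with Ltf between 13.42 and 15.05 in them.

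Of the other large increases, Aspa (aspartoacylase, which splits N-acetylaspartate) read 8.17 and 7.75 in UNSC and at most 6.40 in the other untreated subsets, Miga1 (a mitochondrial outer membrane protein) read 7.73 and 7.65 against at most 6.00, and the Kelch-family gene Klhl23 read 9.54 and 9.49 against at most 7.91. Ino80dos, a transcript on the strand opposite Ino80d, read 7.08 and 7.74 in UNSC. It was dim on both UNTD arrays and on 1 of 2 UNPD arrays. All 14 genes with the largest increases had both UNSC arrays above the 4 other untreated arrays, as had all 61 higher genes, beside 11.7% of all genes tested. All 202 lower genes had them below, beside 13.3% of all genes. The rule used these contrasts, so nothing is read from the counts.

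Genes of cell junctions and of coagulation control were grouped after their values were seen, so their counts are a description. Of 11 measured junction genes, Dsp, Perp and Fat1 were set apart higher and 0 lower, beside 0.418% and 1.39% of all genes. Both scalings ended the calls of Perp and Fat1. Cdh1, the E-cadherin gene, stood the other way without passing the test (adjusted p = 0.126 against UNPD and 0.138 against UNTD). It was dim on both UNSC arrays at 4.63 and 2.16, and read 4.97 and 5.50 in UNPD and 5.48 and 5.70 in UNTD. Dsp (desmoplakin, which anchors desmosomes to intermediate filaments) read 11.80 and 11.73 in UNSC, 9.35 and 9.59 in UNPD, and 10.04 and 9.88 in UNTD, higher by 2.30 ± 0.41 and 1.81 ± 0.41 (adjusted p = 0.00248 and 0.0192, at most 0.128 without UNTD replicate 2). Other desmosome genes did not follow it: Dsg2 read 5.26 and 5.17 in UNSC and 5.18 and 5.78 in UNPD, and Pkp3 read 8.83 and 8.84 in UNSC and 9.37 and 9.40 in UNPD. Of 18 genes of coagulation, Tfpi and Tfpi2, inhibitors of the tissue factor pathway, were set apart higher and 0 lower. The list as a whole was not higher: against the mean of UNPD and UNTD 2 were higher and 4 lower. Its median difference from that mean was -0.515, beside -0.04 over all genes. F10, coagulation factor X, was lower than in UNPD (-1.08 ± 0.21, adjusted p = 0.00374) and just missed the threshold against UNTD (-0.74 ± 0.21, adjusted p = 0.0525). Tfpi read 12.003 and 11.84 in UNSC and at most 10.96 in UNPD and UNTD, and Tfpi2 read 10.12 and 10.29 and at most 8.91. F3, tissue factor itself, was dim on all 6 untreated arrays.

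Igha, the constant region of the IgA heavy chain, and Jchain, which joins IgA and IgM units, were set apart higher together. Igha read 10.95 and 10.96 in UNSC, 7.85 and 8.42 in UNPD, and 7.11 and 7.63 in UNTD. Jchain read 8.09 and 8.17 in UNSC, 5.56 and 5.71 in UNPD, and 5.96 and 5.81 in UNTD. Both also stood high on RATD replicate 1, Igha at 12.13 and Jchain at 9.82, above every UNSC value. Other plasma cell genes differed from this pattern: Sdc1 and Irf4 were dim on both UNSC arrays, Pou2af1 was dim on all 6 untreated arrays, Mzb1 read 6.38 and 6.16 in UNSC against 5.85 and 6.55 in UNPD, and Ighm read 7.34 and 7.48 against 7.82 and 7.72. An immunoglobulin light chain gene, Igkv8-30, missed the threshold with 7.68 and 7.56 in UNSC, 6.01 and 5.81 in UNPD and 4.24 and 5.43 in UNTD (adjusted p = 0.0512 against UNPD). The summed linear signal of 17 B cell genes was 17540 to 19320 in UNSC, 25230 to 26100 in UNPD and 15610 to 21060 in UNTD. The part of plasma cells in the Igha and Jchain result was not tested. Without 1 untreated array the call of Igha reached an adjusted p of 0.0967 (UNSC replicate 2) and that of Jchain 0.201 (UNSC replicate 2).

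**Figure D2:**
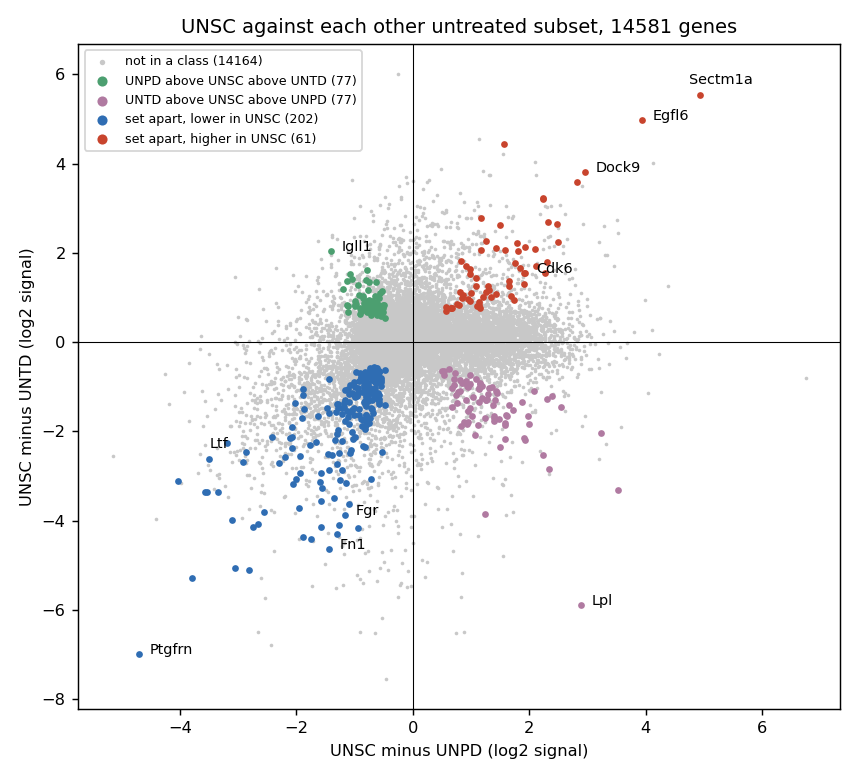
Each point is 1 of 14581 genes, with UNSC minus UNPD on the x axis and UNSC minus UNTD on the y axis, both in log2 signal. The 61 genes higher than both lie at the upper right and the 202 lower than both at the lower left, and both axes use the same UNSC arrays, which by itself spreads points along that diagonal.

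Later granule proteins were a group among the 202 lower genes. Of 24 secondary and tertiary granule genes, 6 were set apart lower and 0 higher, beside 1.39% and 0.418% of all genes. The median difference of the list from the mean of UNPD and UNTD was -0.757, beside -0.04 over all genes. The promoters of 3 of its members are printed here because they carry letters of the C/EBP motif TTGCNCAA. These are the 250 bases before the RefSeq start in build GRCm38.p6, at chr9:111019042-111019291 on the plus strand for Ltf, chr9:110419558-110419807 on the plus strand for Ngp and chr2:32387740-32387989 on the minus strand for Lcn2, 5′ to 3′ on the gene's strand, with the motif on either strand in capitals.
Ltf: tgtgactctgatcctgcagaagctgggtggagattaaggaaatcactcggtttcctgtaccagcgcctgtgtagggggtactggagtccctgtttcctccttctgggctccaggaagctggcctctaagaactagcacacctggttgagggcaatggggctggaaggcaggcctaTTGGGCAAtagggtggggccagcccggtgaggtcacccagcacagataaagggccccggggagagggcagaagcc
Ngp: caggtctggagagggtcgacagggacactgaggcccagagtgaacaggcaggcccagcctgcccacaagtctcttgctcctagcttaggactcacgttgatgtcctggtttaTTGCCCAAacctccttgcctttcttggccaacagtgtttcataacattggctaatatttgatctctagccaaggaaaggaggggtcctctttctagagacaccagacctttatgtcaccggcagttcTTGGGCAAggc
Lcn2: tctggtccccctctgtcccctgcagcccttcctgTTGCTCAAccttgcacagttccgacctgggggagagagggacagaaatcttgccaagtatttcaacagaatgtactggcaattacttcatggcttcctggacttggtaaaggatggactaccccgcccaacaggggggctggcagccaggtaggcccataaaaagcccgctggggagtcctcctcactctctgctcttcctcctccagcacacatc
The match lies 75 to 68 bases before the start in Ltf, at 138 to 131 and 11 to 4 bases before it in Ngp, and 216 to 209 bases before it in Lcn2. Of 233 promoters of 170 lower genes, 9 held TTGCNCAA (3.86%), against 0 of 69 promoters of 46 higher genes and 2.32% of the 14848 promoters of tested genes, or 2.61% of all 32851. The other lower genes with a match were Actn1, Fth1, Ptpn1, Rarg, Sema4a and Tpst1. A match is a stretch of letters and not a measured binding site, and its part in the levels was not tested.

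Ltf, encoding the iron-binding granule protein lactoferrin, read 8.12 and 8.27 in UNSC, 11.37 and 10.76 in UNPD, and 11.28 and 10.01 in UNTD. It was lower, with log2 differences of -2.87 ± 0.48 against UNPD (adjusted p = 0.00209) and -2.45 ± 0.48 against UNTD (adjusted p = 0.00842). Ngp, the neutrophilic granule protein, read 12.80 and 12.88 in UNSC, 14.77 and 14.68 in UNPD, and 14.28 and 13.52 in UNTD. Lcn2, lipocalin 2, which binds bacterial siderophores, read 13.38 and 13.50, 14.66 and 14.58, and 14.95 and 14.65 in the same order, lower, with log2 differences of -1.18 ± 0.18 and -1.36 ± 0.18 (adjusted p = 0.00165 and 0.000688). The UNSC arrays were the lowest of the 6 for all 3 genes. Without UNTD replicate 1 the largest adjusted p was 0.0981 for Ltf and 0.166 for Ngp, while Lcn2 stayed set apart without each array in turn.

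Mmp9, gelatinase B of tertiary granules, was dim on both UNSC arrays at 3.50 and 4.45, and read 7.14 and 6.14 in UNPD and 8.25 and 7.86 in UNTD. It was at least 3.52-fold lower than in UNPD (adjusted p = 0.00472, 0.0696 without UNPD replicate 1) and at least 9.35-fold lower than in UNTD (adjusted p = 0.000822). Stfa3, a stefin that inhibits cysteine proteases, read 10.35 and 10.28 in UNSC, 12.41 and 12.34 in UNPD, and 13.38 and 13.63 in UNTD, lower, with log2 differences of -2.06 ± 0.25 and -3.19 ± 0.25 (adjusted p = 0.00123 and 1.82e-05). Chit1, a chitinase of mature phagocytes, was dim in UNSC at 3.37 and 3.26 and was at least 3.56-fold lower than in UNPD and at least 3.60-fold lower than in UNTD (adjusted p = 0.00213 and 0.00327). Not every later granule gene was lower than both: Camp, the cathelicidin gene, read 14.15 and 14.28 in UNSC, 15.02 and 14.84 in UNPD, and 14.56 and 14.05 in UNTD. S100a8 and S100a9, the calprotectin genes, read 15.54 to 15.60 in UNSC and differed from neither subset by a passing test (adjusted p of 0.487 to 0.884).

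Of 19 genes of the respiratory burst and phagocytosis, 6 were set apart lower and 0 higher, beside 1.39% and 0.418% of all genes. The list median was -0.692. Against UNPD alone 10 were lower in UNSC and 2 higher, beside 10.6% and 15.2% of all genes. Cybb, on this list and on that of the later granule genes, was higher in UNSC than in UNPD and lower than in UNTD. Itgb2, on this list and on that of the later granule genes, is the β2 integrin chain of neutrophil adhesion and read 11.09 and 10.89 in UNSC, 12.41 and 12.71 in UNPD, and 14.11 and 13.71 in UNTD. It was lower, with log2 differences of -1.57 ± 0.23 against UNPD (adjusted p = 0.00153) and -2.92 ± 0.23 against UNTD (adjusted p = 1.85e-05). Fgr, a Src-family kinase of phagocytes, read 7.10 and 7.25, 8.34 on both UNPD arrays, and 10.94 and 11.17 in UNTD, lower, with log2 differences of -1.16 ± 0.19 and -3.88 ± 0.19 (adjusted p = 0.00191 and 1.14e-06). Ncf4, a cytosolic subunit of the phagocyte oxidase, read 12.18 and 12.19, 13.34 and 13.23, and 13.42 and 13.29 in that order, and Fcgr3, a receptor for IgG, read 12.95 and 13.02, 13.59 and 13.73, and 13.95 and 13.71. Itgb2 and Fgr stayed set apart without each untreated array in turn, whereas the largest adjusted p was 0.0901 for Ncf4 (UNSC replicate 2) and 0.148 for Fcgr3 (UNSC replicate 1). Of 29 mature neutrophil genes, 3 were set apart lower (Fcgr3, Mcemp1 and Cd300lf) and 0 higher, beside 1.39% and 0.418% of all genes.

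Monocyte and dendritic cell genes were set apart lower for 5 of 27 and higher for 0, beside 1.39% and 0.418% of all genes. Each of the 5 had a larger difference from UNTD than from UNPD. Against UNPD the list was split, with 4 genes higher in UNSC and 5 lower, beside 15.2% and 10.6% of all genes. Against UNTD 0 were higher and 17 lower, beside 3.2% and 4.96%. Ccr2, Clec7a and Tlr7 stood above UNPD and below UNTD. Csf1r, the receptor for macrophage colony-stimulating factor, read 10.67 and 10.41 in UNSC, 11.97 and 11.40 in UNPD, and 13.61 and 13.79 in UNTD. It was lower, with log2 differences of -1.15 ± 0.35 (adjusted p = 0.0320, and 0.249 without UNPD replicate 1) and -3.16 ± 0.35 (adjusted p = 0.000248). Fn1, fibronectin, was lower, with log2 differences of -1.44 ± 0.33 and -4.63 ± 0.33 (adjusted p = 0.00815 and 1.08e-05), with UNSC at 9.94 and 10.05, UNPD at 10.94 and 11.93, and UNTD at 14.79 and 14.46. Lst1, a leukocyte membrane protein, read 12.08 and 12.15 in UNSC and at least 13.11 on the 4 other untreated arrays, and Tyrobp, the DAP12 signalling adaptor, read 14.08 and 14.18 against at least 14.66. Tyrobp was no longer set apart under either scaling (largest adjusted p = 0.0567 and 0.0781). Irf8, a transcription factor of monocytes and dendritic cells, was not set apart: it read 6.05 and 5.51 in UNSC, 6.995 and 5.60 in UNPD, and 11.64 and 12.28 in UNTD. The summed linear signal of the 27 genes was 64440 to 68590 in UNSC, 69190 to 71030 in UNPD and 173600 to 192700 in UNTD, and the part of monocytic cells in these differences was not tested.

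Among inflammatory genes, 4 of 31 were set apart lower and 0 higher, beside 1.39% and 0.418% of all genes. They were the chemokines Ccl6 and Ccl9, the TNF-induced gene Tnfaip2 and Icam1, an adhesion ligand of β2 integrins. Against UNPD alone 5 of the 31 were higher in UNSC and 7 lower, beside 15.2% and 10.6% of all genes. Nfkbiz, Ccl3 and Birc3 stood above UNPD and below UNTD. Ccl9 read 10.85 and 10.83 in UNSC, 12.56 and 13.01 in UNPD, and 13.90 and 13.64 in UNTD, lower, with log2 differences of -1.94 ± 0.36 and -2.93 ± 0.36 (adjusted p = 0.00311 and 0.000487). Ccl6 read 10.49 and 10.63, 11.003 and 12.30, and 14.32 and 14.06 in that order, and its largest adjusted p was 0.264 without UNPD replicate 2. Irf7, a transcription factor of the interferon response, read 5.64 and 5.86 in UNSC, 7.22 and 6.87 in UNPD, and 8.55 and 8.43 in UNTD. It was 1 of 32 interferon response genes set apart lower, beside 1.39% of all genes, and its call was lost without any 1 of the UNSC or UNPD arrays. Of the 32, 10 were higher in UNSC than in UNPD and 2 lower, beside 15.2% and 10.6% of all genes. Against UNTD 0 were higher and 5 lower, beside 3.2% and 4.96%.

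Transcription factors of granulocytes and monocytes were set apart lower for 2 of 30 and higher for 0, beside 1.39% and 0.418% of all genes. Against UNPD alone 6 of the 30 were higher in UNSC and 7 lower, beside 15.2% and 10.6% of all genes. Cebpb, a C/EBP factor of emergency granulopoiesis, read 13.04 and 13.08 in UNSC, 13.86 and 13.78 in UNPD, and 13.69 and 13.89 in UNTD, lower, with log2 differences of -0.76 ± 0.14 and -0.73 ± 0.14 (adjusted p = 0.00307 and 0.00836). Another probe set of Cebpb did not point the same way in both comparisons, and without UNSC replicate 1 the largest adjusted p was 0.104. Tfeb, a regulator of lysosomal genes, read 7.97 and 7.76, against 8.56 and 8.81 in UNPD and 9.16 and 9.20 in UNTD. Cebpa was lower than in UNPD (-0.61 ± 0.16, adjusted p = 0.0154) and differed from UNTD by -0.23 ± 0.16 (adjusted p = 0.441), and Gfi1 was higher than UNTD by 1.45 ± 0.30 (adjusted p = 0.0116) and differed from UNPD by -0.41 ± 0.30 (adjusted p = 0.348). Myc read 12.03 and 12.05 in UNSC and differed from neither subset by a passing test (-0.07 ± 0.21 and 0.26 ± 0.21).

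Retinoid genes bear on the receptor that the fusion alters, and 2 of 17 were set apart lower, beside 1.39% of all genes. Rarg, retinoic acid receptor gamma, read 6.51 and 6.87 in UNSC, 7.76 and 7.67 in UNPD, and 8.89 and 8.82 in UNTD. It was lower, with log2 differences of -1.03 ± 0.26 (adjusted p = 0.0121, and 0.109 without UNSC replicate 1) and -2.16 ± 0.26 (adjusted p = 0.000352). Dhrs3, which turns retinal back into retinol, read 9.10 and 8.58, 9.77 and 9.56, and 11.09 and 11.30 in that order (largest adjusted p = 0.221 without UNSC replicate 2). Pml read 8.19 and 8.07 in UNSC and Rara 5.89 and 6.33, with neither set apart, and the sources used here do not say whether these probe sets read the transgene.

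The metabolic lists differed in their calls. Of 30 glycolysis and hypoxia genes, 3 were set apart lower and 0 higher, beside 1.39% and 0.418% of all genes. They were the glucose transporter gene Slc2a1, the aldolase gene Aldoc and the hypoxia-induced gene Ndrg1. Against UNPD alone 10 of the 30 were lower in UNSC and 1 higher, beside 10.6% and 15.2% of all genes. Slc2a1 read 10.46 and 10.25 in UNSC, 11.33 and 11.39 in UNPD, and 11.51 and 12.14 in UNTD, lower, with log2 differences of -1.002 ± 0.29 and -1.47 ± 0.29 (adjusted p = 0.0235 and 0.00861, at most 0.182 without UNSC replicate 2). Of 52 oxidative phosphorylation genes and 29 cytosolic ribosomal protein genes, 0 were set apart. In UNSC 39 and 9 of them were lower than in UNPD, beside 10.6% of all genes, and 2 and 0 higher, beside 15.2%. Relative to UNTD, 0 of either list were lower, and 1 and 0 were higher. The 75th percentile was 8.28 and 8.35 on the UNPD arrays, and 8.73 and 8.70 on the UNSC arrays. The part of array scaling in these counts was not tested. Of 26 amino acid and one-carbon synthesis genes 0 were set apart. Other list members set apart lower were Notch1, the TGF-β repressor Ski, the Polycomb gene Phc2, the cell death gene Bcl2l11 (BIM), the sterol regulator Srebf1, the interleukin receptor Il17ra and the integrin chain Itgb5. The integrin chain Itga6 was set apart higher, at 9.87 and 9.77 against 7.95 and 8.83 in UNPD and 8.79 and 8.70 in UNTD (largest adjusted p = 0.22 without UNSC replicate 1).

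**Figure D3:**
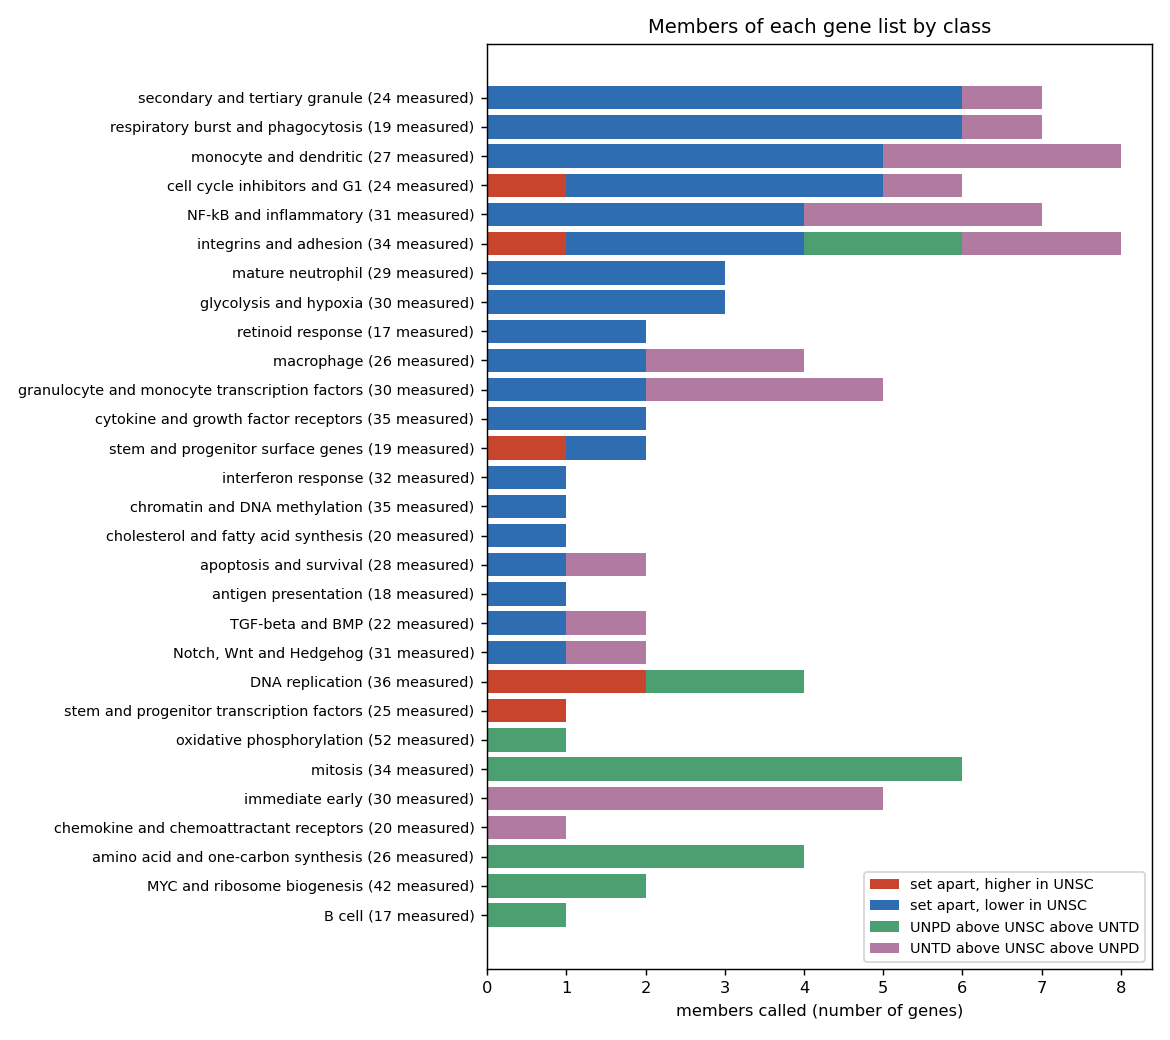
Number of members of each gene list that were set apart higher (red) or lower (blue) in UNSC, or that stood between the other subsets (green, UNPD highest; purple, UNTD highest), with the number of measured genes beside each list name; lists with no such member are left out. Secondary and tertiary granule genes and respiratory burst genes hold 6 genes set apart lower each, and mitosis genes hold 6 with UNPD highest. Genes called against only 1 of the other subsets are not counted in the bars.

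Cytoskeleton and lysosome genes were listed after the lower genes were seen, so their counts are a description. Of 35 actin and tubulin cytoskeleton genes, 17 were set apart lower and 0 higher, beside 1.39% and 0.418% of all genes. The list median was -0.571, beside -0.04 over all genes. Tubb6, a β-tubulin, read 7.94 and 7.76 in UNSC, 9.68 and 9.83 in UNPD, and 9.61 and 9.49 in UNTD, lower, with log2 differences of -1.91 ± 0.22 and -1.70 ± 0.22 (adjusted p = 0.00123 and 0.000659). Acta2, a smooth muscle actin, read 12.24 and 12.14, 13.03 and 13.57, and 13.81 and 13.94 in that order. The bundling and severing proteins Gsn (gelsolin), Capg and Actn1 and the crosslinker Flna were lower in UNSC, with log2 differences of -0.80 ± 0.17, -0.93 ± 0.22, -0.91 ± 0.15 and -0.71 ± 0.17 against UNPD. Actb and Actg1, the actins of all cells, were lower than in UNPD (-0.56 ± 0.16 and -0.52 ± 0.15, adjusted p = 0.0262 and 0.0274) and did not pass against UNTD (adjusted p = 0.0618 and 0.0791). Tubb5, a β-tubulin of dividing cells, was at 13.51 and 13.61 in UNSC and 13.51 and 13.40 in UNTD. The other probe sets of Acta2, Cap1, Marcks, Myo1c, Plec and Tmsb10 did not all point the same way, and the call of Myh9 ended under both scalings.

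Of 28 lysosome genes, 7 were set apart lower and 0 higher, beside 1.39% and 0.418% of all genes, with a list median of -0.528. Ctsd, the lysosomal protease cathepsin D, read 12.13 and 12.05 in UNSC, 12.77 and 13.004 in UNPD, and 13.93 and 13.52 in UNTD. Acp5, an acid phosphatase of macrophages and osteoclasts, read 8.93 and 8.90, 10.45 and 10.00, and 10.61 and 10.35 in that order. Tfe3, a relative of Tfeb, read 8.93 and 9.13 in UNSC and at least 9.90 on the 4 other untreated arrays. Psap, the precursor of saposins, was lower only against UNTD (-2.61 ± 0.14, adjusted p = 2.72e-06) with a difference of -0.36 ± 0.14 from UNPD (adjusted p = 0.0874).

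Most of the genes with the largest decreases were dim in UNSC, so their differences are bounds. Ptgfrn, an immunoglobulin-family membrane protein, read 0.00 and 0.86 in UNSC, 5.36 and 4.91 in UNPD, and 7.24 and 7.59 in UNTD, at least 1.24-fold and at least 6.03-fold lower in UNSC. A further probe set of Ptgfrn pointed the other way, higher in UNSC by 1.87 against UNPD and 0.84 against UNTD. Rin2, an exchange factor for Rab5, read 3.93 and 2.27, 5.89 and 5.94, and 7.75 and 8.66, at least 2.13-fold and at least 10.4-fold lower. Tnni2, a fast skeletal muscle troponin, read 1.82 and 2.32, 5.38 and 6.36, and 7.46 and 7.24, at least 2.06-fold and at least 5.74-fold lower. Serpina1b, an α1-antitrypsin gene, was above the dim level on 1 of 2 UNSC arrays, at 4.93 and 2.38, and read 5.77 and 7.65 in UNPD and 9.19 and 8.25 in UNTD. Sult1a1, a sulfotransferase, and Tmcc2, Adamtsl5, Clec4g and Tbata were dim on both UNSC arrays and near the dim level in the other subsets, at most 6.53. A further probe set of Clec4g was higher in UNSC in both comparisons (0.45 and 0.25). That of Adamtsl5 was higher against UNPD only (0.67, and -1.92 against UNTD). In all, 19 of the 202 lower genes were dim on both UNSC arrays and 178 were above that level on both.

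Sizes are given over the 56 of 61 higher and 178 of 202 lower genes above the dim level on all 6 untreated arrays, since the differences of dim genes are bounds. The smaller of a gene's differences from UNPD and UNTD had a median size of 1.11 among these higher genes (0.56 to 2.95) and 0.827 among the lower genes (0.47 to 2.46, as sizes). Both differences exceeded 2-fold for 33 higher and 66 lower genes, and 4-fold for 7 and 3. Over all members as fitted, the difference from UNTD was the larger for 37 of the 61 and 163 of the 202. The median level over the higher genes was 10.12 and 10.29 on the UNSC arrays and 8.56 to 8.80 on the 4 other untreated arrays, and over the lower genes 9.09 and 9.12 against 10.21 to 10.85. The genomic span of the higher genes had a median of 40.3 kb and that of the lower genes 18.3 kb, beside 21.3 kb over all genes, and the part of gene length in the calls was not tested. Of the 61 and 202 genes, 59 and 195 were annotated as protein coding. Of 38 higher genes with a further probe set, 29 had all probe sets in the same direction in both comparisons, as had 70 of 99 lower genes. Lower genes without such agreement included Ptgfrn, Clec4g, Adamtsl5, Ccnd3, Aldoc, Ndrg1 and Tnfaip2.

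**Figure D4:**
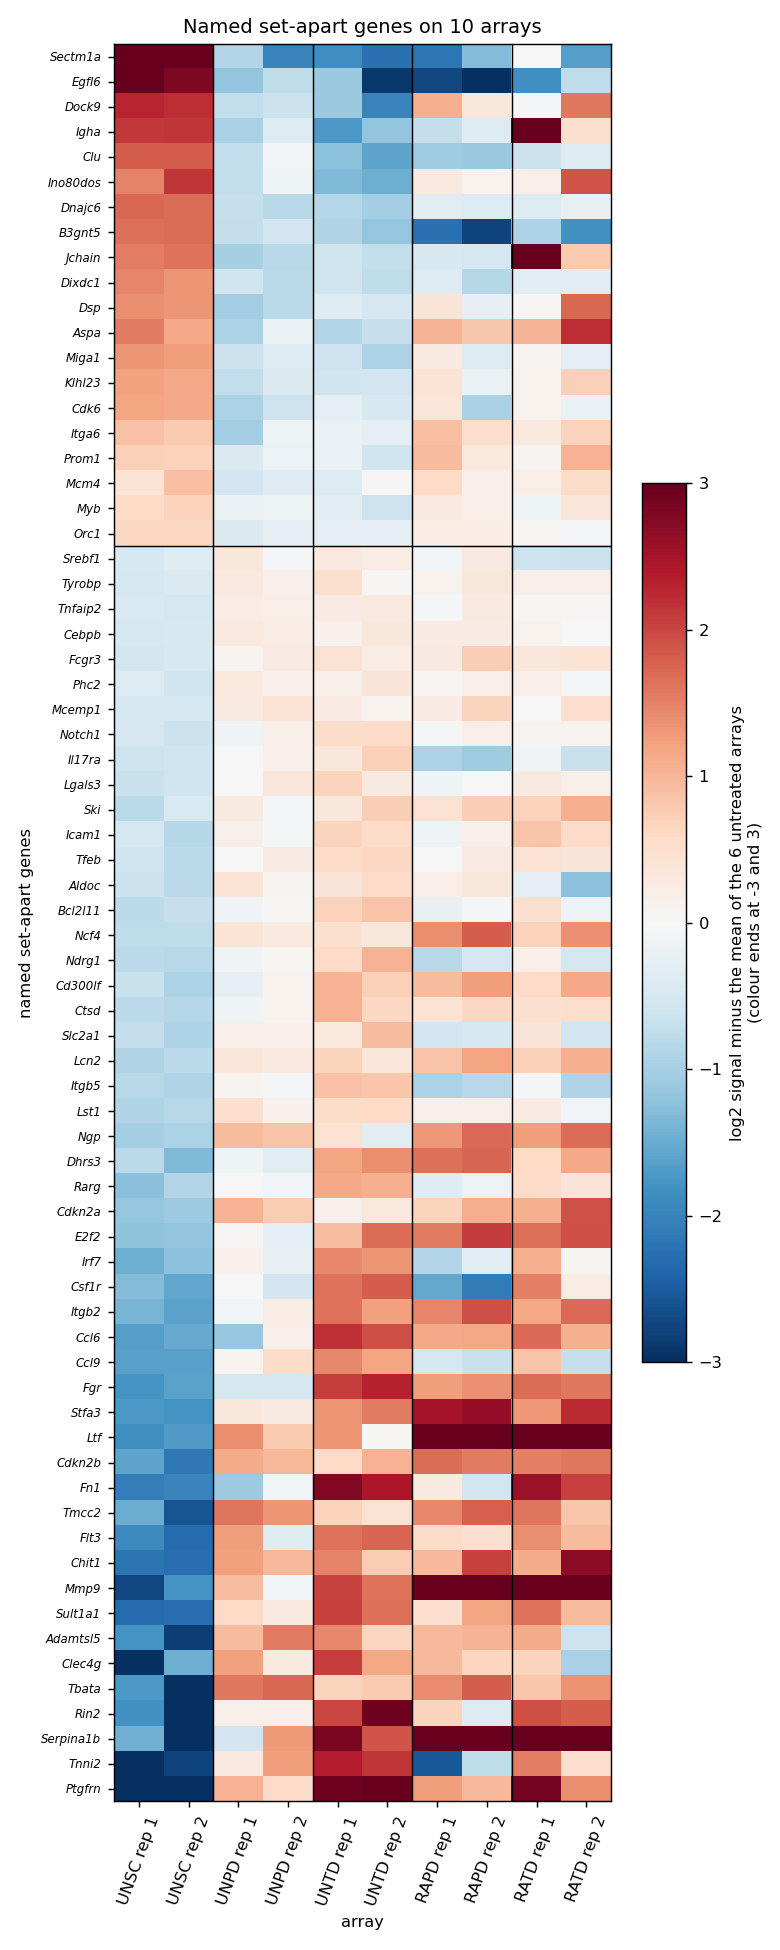
Log2 signal of 70 named set-apart genes (20 higher, 50 lower in UNSC) on the 10 arrays, each gene relative to its mean over the 6 untreated arrays, with colours ending at -3 and 3. The 2 UNSC columns stand apart from the UNPD and UNTD columns in every row because the genes were chosen by that contrast; the 4 columns of ATRA-treated arrays enter none of the contrasts that chose them but share the fit's estimate of spread and the filter on dim probe sets.

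Just inside the threshold among higher genes were Rhobtb3, Nanp and Tex30, with a largest adjusted p of 0.0492, 0.0476 and 0.0472, and just outside were Mns1, Igkv8-30 and Ncapg at 0.0503, 0.0512 and 0.0517. Among lower genes Tbata, Fam20c and Icam1 were just inside at 0.0499, 0.0498 and 0.0493, and Dgkeos, B4galt5 and Ankrd13d just outside at 0.0502, 0.0503 and 0.0504. Ncapg, a condensin subunit, read 10.02 and 10.01 in UNSC and at most 9.12 on the other 4 untreated arrays.

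In 154 genes UNSC stood between the other subsets, 77 with UNPD above UNSC above UNTD (0.528%) and 77 in the reverse order (0.528%). Igll1, a surrogate light chain gene of precursor B cells, read 12.08 and 12.11 in UNSC, 13.72 and 13.28 in UNPD, and 10.31 and 9.78 in UNTD. Phgdh and Shmt2, enzymes of serine and one-carbon metabolism, followed the same order, with Shmt2 at 11.91 and 11.90, 13.16 and 13.05, and 10.78 and 10.65, as did Rapgef3, an exchange factor that senses cyclic AMP. In the reverse order, Lpl (lipoprotein lipase) read 6.06 and 7.58 in UNSC, 5.76 and 2.13 in UNPD, and 12.88 and 12.54 in UNTD, and Ifi209, Rgs1 and Scgb1a1 had the other largest differences. Of 30 immediate early genes, 5 followed the reverse order, beside 0.528% of all genes, and 0 were set apart. Against UNPD 7 of the 30 were higher in UNSC and 0 lower, beside 15.2% and 10.6% of all genes. Against UNTD 0 were higher and 16 lower, beside 3.2% and 4.96%.

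The set-apart genes were then followed in the ATRA-treated arrays. The levels on these arrays enter none of the contrasts of the rule, but they share the fit's estimate of spread and the filter on dim probe sets, so the choice of genes is not independent of them. Between RATD and RAPD, 697 of all genes differed (4.78%), 387 higher in RATD (2.65%) and 310 lower (2.13%), and so did 2 of the 61 higher genes (3.28%) and 16 of the 202 lower genes (7.92%), 18 in all. The 2 were B3gnt5 and Jchain, both higher in RATD, by 1.13 ± 0.29 and 2.52 ± 0.60 (adjusted p = 0.0485 and 0.0401). Of the 16 lower genes, 10 were higher in RATD and 6 lower. Csf1r read 10.45 and 9.89 in RAPD and 13.48 and 12.19 in RATD, higher by 2.67 ± 0.35 (adjusted p = 0.00300), and Fn1 by 2.46 ± 0.33 (adjusted p = 0.00343). Tmsb10, an actin-binding thymosin, had the smallest adjusted p, at 11.42 and 11.34 in RAPD and 14.70 and 14.22 in RATD (3.08 ± 0.17, adjusted p = 1.10e-05). Of the 77 genes with UNPD highest, 46 were lower in RATD than in RAPD, and 43 of the 77 with UNTD highest were higher. Those genes were chosen by a rule that makes the untreated PD and TD subsets differ, which the set-apart rule does not ask. Nothing is therefore read from these shares beside those of the set-apart genes. The 18 set-apart genes called became 7 to 40 when 1 array was left out, 7 without RAPD replicate 2 and 40 without RATD replicate 2.

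Granule genes did not all stand on one side of UNSC on the treated arrays. Mpo read 14.80 and 14.96 in RAPD and 14.29 and 13.33 in RATD, below both UNSC arrays. Ltf read 14.63 and 15.02 in RAPD and 13.42 and 15.05 in RATD, above every untreated array, and Mmp9 read 12.80 and 12.93 in RAPD and 10.04 and 12.01 in RATD. Over all lower genes the median level was 10.55 to 10.69 on the 4 treated arrays, and over the higher genes 8.85 to 9.37, between UNSC and the other untreated subsets. Dsp read 12.11 on RATD replicate 2, above both UNSC arrays. UNSC has no treated counterpart here, so these are levels and not a test of treatment in the SC subset.

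The counts of set-apart genes rest on every untreated array. Without UNSC replicate 1 or 2, 7 and 6 genes were set apart higher and 69 and 40 lower; without UNPD replicate 1 or 2, 18 and 41 higher and 59 and 97 lower; without UNTD replicate 1 or 2, 28 and 20 higher and 107 and 98 lower. Without RAPD replicate 1 or 2 the counts were 112 and 112 higher and 247 and 244 lower, and without RATD replicate 1 or 2 they were 104 and 102 higher and 295 and 299 lower. Of the 202 lower genes, 25 stayed set apart when each of the 6 untreated arrays was left out in turn, among them Stfa3, Lcn2, Itgb2, Fgr, Lst1, Ccl9, Chit1, Ptgfrn, Rin2, Tnni2, Tubb6 and Acta2. Every other gene of the 263, apart from those 25 and the 6 higher genes named above, lost its call without at least 1 of them.

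The upstream sequence of Orc1 is printed as the higher gene whose promoter held the E2F letters TTTCGCGC, here on the opposite strand, with matches to CCAAT, the NF-Y motif, also in capitals. It is chr4:108579204-108579453 on the plus strand in GRCm38.p6.
Orc1: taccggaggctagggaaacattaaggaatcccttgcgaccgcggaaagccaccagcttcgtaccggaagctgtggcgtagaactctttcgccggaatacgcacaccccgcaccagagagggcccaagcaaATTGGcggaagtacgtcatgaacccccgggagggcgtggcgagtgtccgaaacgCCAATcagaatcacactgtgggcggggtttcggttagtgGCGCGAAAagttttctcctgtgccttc
The E2F letters lie 27 to 20 bases before the start and CCAAT on either strand at 120 to 116 and 66 to 62 bases before it. Of 69 promoters of higher genes 1 held TTTCGCGC (1.45%), beside 0.458% for tested genes and 0.429% for lower genes, and CCAAT was in 31.9%, 34.6% and 32.6%. AP-1 letters, TGANTCA, were in 10.1% of promoters of higher genes, 6.87% of lower and 5.19% of tested genes, and PU.1 letters, GAGGAAGT, in 5.80%, 0.858% and 2.46%. The shares of higher and lower genes rest on at most 76 matching promoters each, and no share was tested.

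Markers of other marrow cells stood as follows. Of 18 erythroid, 19 megakaryocyte, 14 T and NK cell, 17 stromal and endothelial and 15 eosinophil, basophil and mast cell genes, 0 were set apart in each list. The summed linear signal was 4984 to 5147 in UNSC, 4092 to 4328 in UNPD and 3637 to 4607 in UNTD for erythroid genes. For megakaryocyte genes it was 5494 to 5918, 2908 to 4869 and 12010 to 13620 in that order, and for mast cell, basophil and eosinophil genes 7341 to 7594, 6502 to 6815 and 2114 to 2804. For T and NK cell genes it was 5992 to 6540 in UNSC, 7895 to 8947 in UNPD and 1223 to 2128 in UNTD, and for stromal and endothelial genes 3039 to 3379, 2093 to 2325 and 3122 to 3475. Slc4a1 and Car1 of the erythroid list and Ppbp and Tubb1 of the megakaryocyte list were dim in UNSC.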

How the data were processed

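RNA of sorted leukaemia cells was measured on 10 single-colour Affymetrix arrays, from 6 µg of Trizol-extracted RNA made into biotinylated cRNA per the labels' protocols. The deposited values are log2 signals made by the authors with MAS5, per the submitters' processing notes (version not given in the sources used here); their mean without the lowest and highest 2% was 496.3 to 497 linear on every array. That scaling sets 1 mean per array and does not align the distributions. Of 45037 probe sets, 34945 had 1 gene symbol, 932 several and 9160 none in the platform annotation; 34741 matched RefSeq (GRCm38.p6). Probe sets above the 40th percentile on at least 2 arrays were kept (32686), and the one of highest mean stood for a gene, giving 14581 genes.

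The linear model was limma's, version 3.58.1 under R 4.3.3 (lmFit, eBayes with trend, 5 group means, 5 residual degrees of freedom), two-sided, on 2 arrays a group; their number limits the precision. The fit takes 1 spread for all groups. Where nothing says that replicates came from separate animals, p-values measure the spread between these samples. Named genes are the 14 largest set-apart genes in each direction, up to 4 of each list by p, fixed anchor genes (Cebpe was not among those tested), the 4 largest genes in each order between the subsets, and 3 either side of the threshold; members of lists made after the values were seen are named as such. Members and lists were chosen with earlier results of these data known. Alternatives varied scaling, filter, probe set choice, arrays in the fit, trend, weights, floor, replicate block and threshold, and left out each array. Promoters are RefSeq's, and a motif was searched on both strands.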

Additional observations from a re-analysis of the deposited data

How the results depend on the processing

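The counts follow the order of genes differing from the mean of UNPD and UNTD (1479), set apart higher (61), set apart lower (202), between the subsets (154) and set-apart genes differing between RATD and RAPD (18); the cause of each shift was not tested. With each array left out in turn, which leaves a lone sample assumed to vary like the other groups, they ran from 90 to 2400, 6 to 112, 40 to 299, 10 to 292 and 7 to 40. In the 6 untreated arrays alone they were 3360, 283, 464 and 697, and with array weights 3846, 273, 508, 687 and 7. Without an intensity trend they were 156, 20, 64, 25 and 1, and 22.4% of the first count was higher in place of 58%. At an adjusted p under 0.01 they were 247, 15, 60, 17 and 6, and against a fold of 1.5 86, 8, 21, 4 and 5. With the probe set of largest variance 38 genes were higher, 134 lower and 95 between. Scaling to the 75th percentile gave 342 lower and 249 between, and moved the median difference from UNPD from -0.203 to -0.604. Apart from the replicate block, given next, the other alternatives left each count within 1.5 times. No named gene that was set apart in the main fit or in an alternative changed the sign of its difference from the mean there. Sign changes of named genes set apart in neither were not counted.

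Over bright genes the correlation between groups of the differences of replicate 1 from 2 ran from -0.501 (UNPD with RAPD) to 0.1 (UNSC with UNPD). Replicates of the same number thus showed at most a weak shift in the same direction, while those of UNPD and RAPD tended to shift in opposite directions. A block on the replicate number cannot take up a negative correlation, and whether samples are paired in another way was not tested. With the replicate number as a block, the counts were 1099, 47, 168, 99 and 11. Depth is unknown for arrays, and 2 arrays a group limit all results; genes near the dim level have differences that are bounds.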
